A study of Saccharomyces cerevisiae with 12 samples.

Results

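The 34 genes described here encode the enzymes that take glucose to pyruvate in budding yeast and carry its products on to ethanol, acetate and glycerol. They were chosen by the function of their products, with earlier results of these data known. There were 8 genes of upper glycolysis, 9 of lower glycolysis, 3 pyruvate decarboxylase genes, 5 alcohol dehydrogenase genes, 5 aldehyde dehydrogenase genes and 4 genes of glycerol synthesis. All 34 were present in the table of 7126 genes, and all 34 were among the 6572 genes with a mean level of at least 1 FPKM that entered the tests.

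RNA was measured in 12 samples of Saccharomyces cerevisiae, 3 in each of 4 groups. All cells were MATa and of the MHY1379 background, auxotrophic through mutations in HIS3, LEU2, LYS2, TRP1 and URA3, and all carried ulp2Δ::HIS3. The genomic copy of ULP2, the gene of a SUMO-chain protease, was therefore missing in every group. SUMO is a small protein that is attached to other proteins. Cells labelled WT carried ULP2 on the centromeric URA3 plasmid YCplac33, and ulp2 null cells are described as having received the empty plasmid after the ULP2 plasmid had been evicted on 5-FOA medium. Each was sampled at 50 and 500 generations (50G and 500G). The study counts the generations up to 50G over plasmid eviction on plates and transformation. Passaging to 500G was in YPD, rich medium with glucose, in which cultures reached saturation and were diluted every day. The labels place the RNA samples at mid-exponential phase. The study describes ulp2 null 50G cells as disomic for chromosomes I and XII, with the extra copies lost by 500G. It also describes mutations in UBC9, the gene of the SUMO-conjugating enzyme, and IFM1, that of a mitochondrial translation initiation factor, in null cells passaged to 500G, and in the spindle checkpoint gene BUB1 in WT cells passaged to 500G. Nothing says whether 3 samples under one label came from separate lines or even separate cultures, so the p-values measure only the spread between these samples, which may be technical.

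As background, glycolysis splits one hexose into a pair of three-carbon units and oxidises them to pyruvate. S. cerevisiae growing on glucose sends most pyruvate through pyruvate decarboxylase and the cytosolic alcohol dehydrogenase Adh1 to ethanol, even in the presence of oxygen, and makes glycerol to balance its redox cofactors and as an osmolyte. Once glucose is used up the cells take up ethanol again, through Adh2, aldehyde dehydrogenases and acetyl-CoA synthetase, and reverse glycolysis with a few dedicated enzymes. Many steps are encoded by isozymes that differ in their regulation by glucose, such as Hxk2, Eno2, Pdc1 and Adh1, which are abundant on glucose, and Hxk1, Glk1, Eno1 and Adh2, which are usually higher without it.

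The unit was FPKM, the fragment count scaled by transcript length and by the size of the library, so levels of different genes were compared per length. Differences between groups were tested with limma on log2(FPKM + 1) over all 6572 genes in a single fit of the 4 groups, and a gene was called at a Benjamini-Hochberg adjusted p under 0.05. Fold changes are on that log2 scale, which understates changes of low genes. In RNA from whole cultures, a change in the share of cells that express a gene cannot be told apart from a change in RNA per cell. ULP2 was at 162 to 217 FPKM in the 6 WT libraries and at 0 to 0.995 FPKM in the 6 null libraries. URA3, the marker of the plasmid, was at 1523 to 2388 FPKM in the WT libraries and at 35.4 to 48.7 FPKM in the null libraries, although an empty URA3 plasmid is described for the latter. The study's methods give the number of reads only as an average over the libraries, and the depth of each library is not given in the sources used here.

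Several isozyme pairs are near-identical copies and only reads with a single place in the genome were counted, which bears on how their levels can be read. The starts of 3 pairs are shown here from the RefSeq R64 reference, the build the authors mapped to, as the 60 bases from the start codon. Capitals mark bases that differ between the members of a pair.
ADH1 (chrXV:160535-160594, minus strand): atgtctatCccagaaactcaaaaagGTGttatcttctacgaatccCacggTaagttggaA
ADH2 (chrXIII:874278-874337, minus strand): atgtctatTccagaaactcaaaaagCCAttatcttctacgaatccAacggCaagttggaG
TDH2 (chrX:454622-454681, minus strand): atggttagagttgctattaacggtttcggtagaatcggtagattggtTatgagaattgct
TDH3 (chrVII:883751-883810, minus strand): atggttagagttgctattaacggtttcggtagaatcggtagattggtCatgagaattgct
ENO1 (chrVII:1000927-1000986, plus strand): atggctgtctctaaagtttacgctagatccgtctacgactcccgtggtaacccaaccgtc
ENO2 (chrVIII:451327-451386, plus strand): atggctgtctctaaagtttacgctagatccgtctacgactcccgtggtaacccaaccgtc
ADH1 and ADH2 differ at 7 of these 60 bases, TDH2 and TDH3 at 1, and ENO1 and ENO2 at 0. Over the whole coding sequences, ADH1 and ADH2 were 88.8% identical, TDH2 and TDH3 95.8%, ENO1 and ENO2 94.8%, and ALD2 and ALD3, neighbours on chromosome XIII, 91.8%. Of all windows of 70 bases in a coding sequence, 31.7% of those of ALD2 and of ALD3 occurred elsewhere in the genome. The share was 20.8% for TDH2, 14.5% for TDH3, 10.9% for TDH1, 12.4% for ENO1 and for ENO2, and 12.3% for ADH1 and for ADH2. The other 25 genes had 0 such windows. The levels of these 9 genes are therefore less certain than the rest, as a read from a shared stretch could not be placed by itself. The study sequenced fragments from both ends, and how many such reads were placed through their mates was not computed. None of the 34 genes has an intron in its coding sequence.

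A second set of sequences is shown for ADH2 and ALD4, the 2 of the 34 genes with the largest changes over passaging. Adr1 is the transcription factor known for switching on ADH2 when glucose is used up, and its core motif was searched as TTGGAG or TTGGGG on both strands in the 500 bases before each start codon. The 5 matches of ADH2 and ALD4 are given as windows of 30 bases on the strand of the gene, with the motif or its reverse complement in capitals.
ADH2, 291 bases before the start (chrXIII:874611-874640, minus strand): aacaccgggcatCTCCAActtataagttgg
ADH2, 277 bases before the start (chrXIII:874597-874626, minus strand): ccaacttataagTTGGAGaaataagagaat
ALD4, 473 bases before the start (chrXV:1039355-1039384, plus strand): atgacactcctgCCCCAActgccacgaatc
ALD4, 219 bases before the start (chrXV:1039609-1039638, plus strand): aggtatctttttCTCCAActccaacagaga
ALD4, 213 bases before the start (chrXV:1039615-1039644, plus strand): ctttttctccaaCTCCAAcagagatggaaa
The windows at 291 and 277 bases of ADH2 overlap and hold the motif in opposite directions, and so form an inverted pair. The motif was present before 5 of the 34 genes (14.71%), namely GLK1, FBA1, ADH2, ADH4 and ALD4, and before 1570 of all 6000 promoters of this length (26.17%). The stress response element AGGGG, searched on both strands, stood before 20 of the 34 genes (58.82%) and 34.07% of all promoters, and the Gcr1 box CTTCC, the motif of the main activator of glycolytic genes, before 24 (70.59%) and 66.12%. The carbon source-responsive element was found before 0 of the 34 genes and 0.4333% of all promoters. These matches are letters in a window and show no binding.

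Taken by level, the 34 genes spanned the table from top to bottom. TDH3, the most abundant isozyme of glyceraldehyde-3-phosphate dehydrogenase, ranked between 5 and 10 of the 7126 genes in the 12 libraries, and FBA1, the aldolase, between 10 and 23. PDC5 ranked between 4594 and 6082. Together the 34 genes held 4.69% ± 0.306 (SD, n = 3) of the summed FPKM of WT 50G libraries and 5.12% ± 0.207 of WT 500G libraries. For ulp2 null cells the share was 3.03% ± 0.131 at 50G and 4.73% ± 0.402 at 500G. The share in ulp2 null 50G cells, 2.91% to 3.16% per library, lay below all 9 other libraries, which ranged from 4.29% to 5.35% (exact two-sided permutation test against WT 50G, p = 0.1, the smallest that 3 against 3 libraries allow). Lower glycolysis held the largest part in every group, 2.61% ± 0.216 for WT 50G and 1.60% ± 0.0964 for ulp2 null 50G cells. The alcohol dehydrogenases held 0.542% ± 0.0157 in WT cells at 50G and 0.988% ± 0.0417 at 500G. For ulp2 null cells the values were 0.341% ± 0.0196 and 0.999% ± 0.0533, and 50G and 500G libraries did not overlap in either strain (exact two-sided permutation test, p = 0.1 for each). Without ADH2 and ALD4 the share was 4.38% ± 0.309 at 50G and 3.96% ± 0.213 at 500G for WT cells. For ulp2 null cells it was then 2.82% ± 0.131 at 50G and 3.504% ± 0.339 at 500G.

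**Figure D1:**
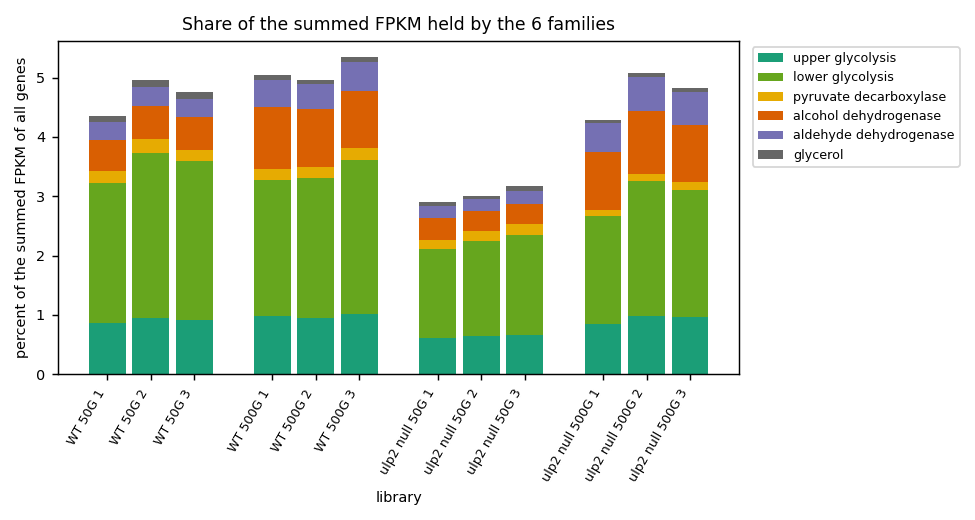
Percent of the summed FPKM of all genes held by each of the 6 families (stacked bars, from 0) in the 12 libraries. The 3 ulp2 null 50G bars, between 2.91% and 3.16%, are the lowest, and the alcohol dehydrogenase part is widest in the 6 libraries of 500G cells.

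The label of mid-exponential growth in glucose can be set against genes that glucose represses. Of 8 such genes, PCK1, which encodes the first enzyme of gluconeogenesis, was at 3465 to 11338 FPKM and ICL1, an enzyme of the glyoxylate cycle, at 1663 to 5917 FPKM, and none was at 0 in any library. PCK1 ranked between 8 and 25 of all genes. Of the other 6, FBP1, MLS1, JEN1, ADY2 and ACS1 ranked among the first 379 genes in every library, while SUC2, invertase, was at 62.1 to 176 FPKM and ranked between 1058 and 2671. HSP12, a stress protein that accumulates as cells leave exponential growth, was at 8155 to 36649 FPKM and ranked between 3 and 8. The levels of PCK1, ICL1 and HSP12 go against the growth phase on the label, and that of SUC2 is not of this kind. The summed level of the 8 glucose-repressed genes was 19379 to 19856 FPKM in WT 50G, 31611 to 35904 in WT 500G, 9064 to 9785 in ulp2 null 50G and 27486 to 28781 in ulp2 null 500G libraries. The summed level of 8 general stress genes was 29306 to 30554, 59394 to 63669.6, 19426 to 21362 and 44450.3 to 48456 FPKM in the same order. Both sums were lowest in ulp2 null 50G cells and, within each strain, higher at 500G than at 50G, as were ADH2 and ALD4. Single genes of both lists went the other way. SUC2, SSA3 and SPI1 were higher in every ulp2 null 50G library than in every WT 50G library. SUC2 was lower at 500G than at 50G in both strains, as were HSP30 and SPI1 in ulp2 null cells and GPH1 in WT cells. The part of growth phase in the results given here was not tested.

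The comparison of ulp2 null with WT cells at 50G gives the difference between the strains soon after plasmid eviction. Loss of Ulp2 and the extra copies of chromosomes I and XII described for ulp2 null 50G cells cannot be told apart in it. Of the 34 genes, 21 were lower in ulp2 null 50G cells and 4 were higher, with a median log2 fold change of -0.40. Over all genes tested, 18.1% were lower and 18.7% higher, with a median of -0.016. The lower genes came from every family, with 5 of 8 in upper glycolysis, 6 of 9 in lower glycolysis, 2 of 3 pyruvate decarboxylase genes, 3 of 5 alcohol and 3 of 5 aldehyde dehydrogenase genes, and 2 of 4 glycerol genes. The 4 higher genes were the hexokinase genes HXK1 and HXK2, PDC5 and ALD3. Rescaling the libraries to an equal FPKM sum over the genes other than these 34 ended the calls of HXK1, ALD3 and GPD2 (adjusted p = 0.0769, 0.0664 and 0.0513).

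**Figure D2:**
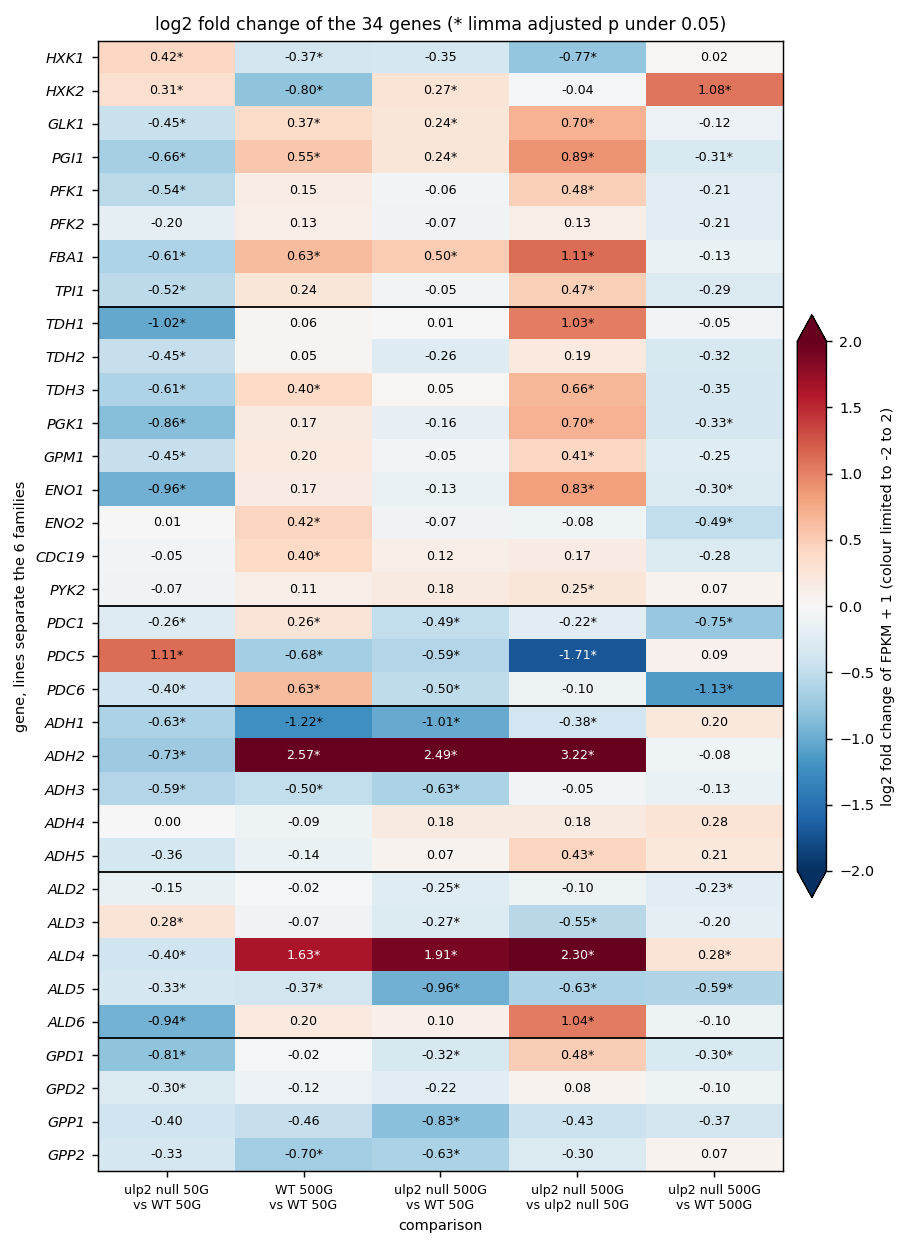
Log2 fold change of FPKM + 1 for the 34 genes (rows, grouped by family) in 5 comparisons (columns), with asterisks at a limma adjusted p under 0.05. The ulp2 null 50G column is mostly negative, with 21 genes called lower, and ADH2 and ALD4 stand out in the 3 columns that compare 500G with 50G cells.

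In lower glycolysis the fall at 50G was uneven between isozymes. TDH1 (YJL052W), TDH2 (YJR009C) and TDH3 (YGR192C) encode glyceraldehyde-3-phosphate dehydrogenase, the oxidative step of glycolysis. TDH1 was at 4759.6, 6102 and 5795 FPKM in WT cells of 50G and 5633, 5944 and 5704 FPKM in those of 500G. TDH1 levels in ulp2 null cells were 2627, 2846 and 2692 FPKM at 50G and 5281, 5843 and 5537 FPKM at 500G. Its ulp2 null 50G values lay below those of the other 9 libraries. The log2 fold change between ulp2 null and WT at 50G was -1.02 ± 0.09 (SE, limma adjusted p = 9.76e-06) for TDH1, -0.61 ± 0.10 (SE, limma adjusted p = 0.000903) for TDH3 and -0.45 ± 0.12 (SE, limma adjusted p = 0.011) for TDH2. TDH3 was at 10565, 13163 and 12659 FPKM in WT cells of 50G and 15057, 16425 and 16346 FPKM in those of 500G. TDH3 levels in ulp2 null cells were 7572, 8176 and 7959 FPKM at 50G and 10870.1, 13936 and 12763 FPKM at 500G. TDH2 was at 1314, 1804 and 1649 FPKM in WT cells of 50G and 1565, 1683 and 1661 FPKM in those of 500G. TDH2 levels in ulp2 null cells were 1064, 1217 and 1175 FPKM at 50G and 1168, 1429 and 1358 FPKM at 500G. The log2 ratio of TDH1 to TDH3 differed by -0.41 between ulp2 null and WT cells at 50G, with no overlap between libraries (exact two-sided permutation test, p = 0.1). Per length, TDH3 was the highest and TDH2 the lowest of the 3 in all 12 libraries.

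The enolase pair, which makes phosphoenolpyruvate, differed more. ENO1 (YGR254W, chrVII:1000927-1002240, plus strand) was at 4567, 5377 and 4844 FPKM in WT cells of 50G and 5609, 5523 and 5452 FPKM in those of 500G. ENO1 levels in ulp2 null cells were 2651, 2549 and 2411 FPKM at 50G and 4088, 4900.1 and 4548 FPKM at 500G. ENO2 (YHR174W, chrVIII:451327-452640, plus strand) was at 559, 693 and 687 FPKM in WT cells of 50G and 851, 874 and 865 FPKM in those of 500G. ENO2 levels in ulp2 null cells were 659.6, 658 and 634 FPKM at 50G and 518, 718 and 621 FPKM at 500G. ENO1 changed at 50G by -0.96 ± 0.08 (SE, limma adjusted p = 8.68e-06), while ENO2 gave 0.01 ± 0.12 (SE, limma adjusted p = 0.94, 95% interval -0.24 to 0.27). ENO1, usually the minor form on glucose, exceeded ENO2 in every library. The ratio was 7.05 to 8.17 for WT 50G and 6.30 to 6.59 for WT 500G cells, and 3.81 to 4.02 and 6.83 to 7.88 for ulp2 null cells at 50G and 500G. The log2 ratio of ENO1 to ENO2 differed by -0.97 between ulp2 null and WT cells at 50G, with no overlap between libraries (exact two-sided permutation test, p = 0.1).

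Among the single-copy steps of the pathway, PGK1 (YCR012W), phosphoglycerate kinase, was at 1476, 1527 and 1348 FPKM in WT 50G libraries. The ulp2 null 50G libraries were at 839, 801 and 759.8 FPKM, a log2 fold change of -0.86 ± 0.07 (SE, limma adjusted p = 7.44e-06). PGI1 (YBR196C), the isomerase of glucose 6-phosphate, changed by -0.66 ± 0.07 (SE, limma adjusted p = 4.94e-05), and FBA1 (YKL060C) by -0.61 ± 0.07 (SE, limma adjusted p = 5.31e-05). TPI1 (YDR050C), triose phosphate isomerase, and GPM1 (YKL152C), phosphoglycerate mutase, changed by -0.52 and -0.45 on the log2 scale (limma adjusted p = 0.00949 and 0.000755). All 5 genes were lower in each ulp2 null 50G library than in each WT 50G library. The share of all tested genes without overlap in this comparison was not computed. The subunits of phosphofructokinase, the committed step, were called unlike each other. PFK1 (YGR240C) changed by -0.54 ± 0.08 (SE, limma adjusted p = 0.000313), and PFK2 (YMR205C) by -0.20 ± 0.09 (SE, limma adjusted p = 0.0978), with a 95% interval of -0.39 to -0.01. The log2 ratio of PFK2 to PFK1 was -0.46 ± 0.13 (SD, n = 3) for WT 50G cells, -0.47 ± 0.04 in WT 500G, -0.12 ± 0.01 in ulp2 null 50G and -0.47 ± 0.06 in ulp2 null 500G cells, and the ulp2 null 50G libraries lay above all 9 others. PFK2 was called in none of the 5 comparisons and not in the test of strain by passage, as was ADH4.

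The 3 enzymes that phosphorylate glucose went in different directions. HXK2 (YGL253W), the main hexokinase on glucose, which also acts in glucose repression, was at 141, 138 and 137 FPKM in WT cells of 50G and 76.5, 75.3 and 85.7 FPKM in those of 500G. HXK2 levels in ulp2 null cells were 178, 173 and 167 FPKM at 50G and 164, 172 and 167 FPKM at 500G. WT 500G libraries were the lowest and ulp2 null libraries of both passages were above all WT libraries. HXK2 was higher in ulp2 null than in WT cells at 50G by 0.31 ± 0.06 (SE, limma adjusted p = 0.00247) and at 500G by 1.08 ± 0.06 (SE, limma adjusted p = 3.45e-06), and lower in WT 500G than in WT 50G cells (-0.80 ± 0.06 SE, limma adjusted p = 6.27e-06). HXK1 (YFR053C) was at 336, 396 and 379 FPKM in WT cells of 50G and 259.6, 286 and 314 FPKM in those of 500G. HXK1 levels in ulp2 null cells were 496, 511 and 477 FPKM at 50G and 233, 342 and 307 FPKM at 500G. It was higher in ulp2 null 50G cells than in their WT 50G counterparts (0.42 ± 0.13 SE, limma adjusted p = 0.0276) and lower in ulp2 null cells at 500G than at 50G (-0.77 ± 0.13 SE, limma adjusted p = 0.000593). Glucokinase, GLK1 (YCL040W), was at 1283, 1465 and 1307 FPKM in WT cells of 50G and 1777, 1715 and 1729 FPKM in those of 500G. GLK1 levels in ulp2 null cells were 920.1, 1035 and 1005 FPKM at 50G and 1529, 1642 and 1624 FPKM at 500G. GLK1 fell in ulp2 null 50G cells (-0.45 ± 0.07 SE, limma adjusted p = 0.000509), the opposite of the hexokinases, and was higher in WT 500G cells (0.37 ± 0.07 SE, limma adjusted p = 0.0021).

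Per length, GLK1 was the highest of the 3 in all 12 libraries and HXK2 the lowest. The ratio of GLK1 to HXK2 was 9.12 to 10.6 for WT 50G and 20.2 to 23.2 for WT 500G cells. For ulp2 null cells it was 5.16 to 6.04 at 50G and 9.34 to 9.70 at 500G. The ratio of HXK1 to HXK2 was 2.39 to 2.86, 3.39 to 3.80, 2.78 to 2.94 and 1.42 to 1.99 in the same order, so GLK1 was lowest relative to HXK2 in ulp2 null 50G cells and HXK1 in ulp2 null 500G cells. Between ulp2 null and WT cells at 500G the log2 ratios differed by -1.20 for GLK1 to HXK2 and -1.05 for HXK1 to HXK2, with no overlap between libraries (exact two-sided permutation test, p = 0.1 for each).

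Pyruvate kinase, the last step of glycolysis, is encoded by CDC19 (YAL038W) and PYK2 (YOR347C). CDC19 was at 460.1, 601 and 519.6 FPKM in WT cells of 50G and 698, 653 and 719.7 FPKM in those of 500G. CDC19 levels in ulp2 null cells were 477, 501 and 543 FPKM at 50G and 530.0, 602 and 575 FPKM at 500G. It was higher in WT 500G than in WT 50G cells (0.40 ± 0.10 SE, limma adjusted p = 0.00894) and gave -0.05 ± 0.10 (SE, limma adjusted p = 0.744) in ulp2 null 50G cells. PYK2, a form that does not depend on fructose 1,6-bisphosphate, was at 46.9 to 58.6 FPKM over the 12 libraries and was called once, higher in ulp2 null cells at 500G than at 50G (0.25 ± 0.07 SE, limma adjusted p = 0.00898). That call had the opposite sign, -0.0091 with an adjusted p of 0.942, with an equal sum over the other genes as the scale. CDC19 exceeded PYK2 in all 12 libraries.

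CDC19 lies on chromosome I (chrI:71786-73288, plus strand), and PDC1 (chrXII:232390-234081, minus strand) and PDC5 (chrXII:410723-412414, plus strand) lie on chromosome XII, the 2 chromosomes described as disomic in ulp2 null 50G cells. Over all tested genes of these chromosomes, the median log2 fold change between ulp2 null and WT at 50G was 0.58 for the 95 genes of chromosome I and 0.68 for the 511 genes of chromosome XII, against -0.11 to 0.0034 for the other 14. CDC19, at -0.05, lay below the first quartile of chromosome I (0.35), and PDC1, at -0.26, below that of chromosome XII (0.49). PDC5, at 1.11, lay above the third quartile of chromosome XII (0.94). Of the 31 genes on other chromosomes, 27 had a negative log2 fold change, and 20 of these were called, beside 18.1% of all tested genes called lower. That share takes in chromosomes I and XII, and the share over the other 14 alone was not computed. The share of all tested genes with a negative value, called or not, was not computed either.

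**Figure D3:**
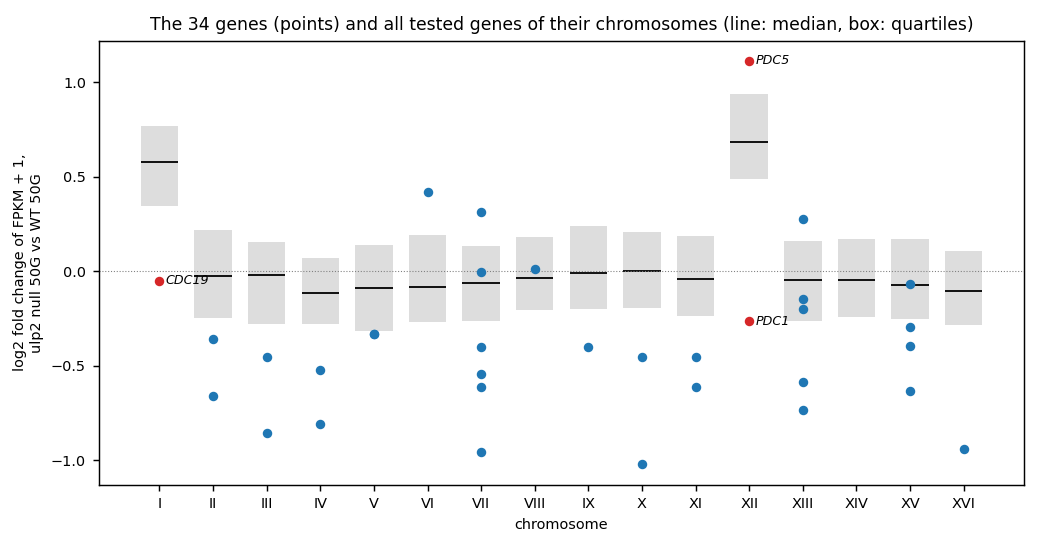
Log2 fold change of FPKM + 1 between ulp2 null 50G and WT 50G cells for the 34 genes (points), by chromosome, with the median (line) and quartiles (box) of all tested genes of each chromosome. CDC19 on chromosome I and PDC1 on chromosome XII lie below their boxes, whose medians are 0.58 and 0.68, and PDC5 lies above its box.

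The pyruvate decarboxylases take pyruvate to acetaldehyde. PDC1 (YLR044C), the main form, was at 2148, 2573 and 2270.0 FPKM in WT cells of 50G and 2739, 2824 and 2813 FPKM in those of 500G. PDC1 levels in ulp2 null cells were 1844, 1998 and 1967 FPKM at 50G and 1529, 1765 and 1687 FPKM at 500G. PDC5 (YLR134W), a form known to rise when PDC1 is lost or thiamine is short, was at 10.2, 12.5 and 11.3 FPKM in WT cells of 50G and 6.51, 5.49 and 8.19 FPKM in those of 500G. PDC5 levels in ulp2 null cells were 26.7, 25.4 and 24.6 FPKM at 50G and 5.91, 7.88 and 7.79 FPKM at 500G. PDC6 (YGR087C), a minor form known from sulfur limitation, was at 16.7, 19.0 and 19.7 FPKM in WT cells of 50G and 27.7, 30.4 and 29.3 FPKM in those of 500G. PDC6 levels in ulp2 null cells were 13.0, 13.2 and 15.0 FPKM at 50G and 11.0, 14.6 and 12.7 FPKM at 500G. PDC1 thus held nearly all of the message, with the ratio of PDC5 to PDC1 at 0.0145 or less and that of PDC6 to PDC1 at 0.0107 or less in every library. PDC5 was highest in ulp2 null 50G cells, above all 9 other libraries, with a log2 fold change of 1.11 ± 0.14 (SE, limma adjusted p = 0.000146) against WT 50G cells and -1.71 ± 0.14 (SE, limma adjusted p = 4.25e-06) between ulp2 null 500G and 50G cells. Its level of 24.6 to 26.7 FPKM at 50G remained far below that of PDC1.

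PDC1 and PDC6 separated the strains at 500G. Against WT 50G cells, PDC1 was higher in WT 500G (0.26 ± 0.08 SE, limma adjusted p = 0.0225) and lower in ulp2 null 500G cells (-0.49 ± 0.08 SE, limma adjusted p = 0.00108). PDC6 likewise was higher in WT 500G (0.63 ± 0.11 SE, limma adjusted p = 0.000887) and lower in ulp2 null 500G cells (-0.50 ± 0.11 SE, limma adjusted p = 0.0045). These comparisons share the WT 50G libraries. The direct comparison of the strains at 500G gave -0.75 ± 0.08 (SE, limma adjusted p = 0.000323) for PDC1 and -1.13 ± 0.11 (SE, limma adjusted p = 0.000141) for PDC6, with no overlap between libraries. For PDC5 it gave 0.09 ± 0.14 (SE, limma adjusted p = 0.733, 95% interval -0.23 to 0.41). With an equal sum over the other genes as the scale, PDC1 in WT 500G cells changed sign to -0.093 and its call was lost (adjusted p = 0.452), as was that of PDC6 (adjusted p = 0.0876). All 3 pyruvate decarboxylase genes were called lower in ulp2 null 500G cells against WT 50G cells, as were 17.8% of all tested genes.

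Among the 34 genes, the largest changes over passaging were those of ADH2, in both strains. ADH2 (YMR303C, chrXIII:873291-874337, minus strand), the enzyme of ethanol consumption whose upstream windows are given above, was at 2096, 2153 and 2110.1 FPKM in WT cells of 50G and 13526, 12952 and 11303 FPKM in those of 500G. ADH2 levels in ulp2 null cells were 1378, 1239.6 and 1213 FPKM at 50G and 11912, 12545 and 11232 FPKM at 500G. All 6 libraries of 500G cells lay at 11232 FPKM or more and all 6 of 50G cells at 2153 or less. ADH1 (YOL086C, chrXV:159548-160594, minus strand), the enzyme that makes ethanol, was at 3115, 3636 and 3409 FPKM in WT cells of 50G and 1588, 1449 and 1328 FPKM in those of 500G. ADH1 levels in ulp2 null cells were 2441, 2165 and 1950.1 FPKM at 50G and 1659, 1771 and 1593 FPKM at 500G. It moved the opposite way, with WT 50G libraries highest and WT 500G libraries lowest. The log2 fold change over passaging was 2.57 ± 0.08 (SE, limma adjusted p = 5.95e-09) for ADH2 and -1.22 ± 0.10 (SE, limma adjusted p = 8.2e-06) for ADH1 in WT cells, and 3.22 ± 0.08 (SE, limma adjusted p = 4.98e-10) and -0.38 ± 0.10 (SE, limma adjusted p = 0.00814) in ulp2 null cells.

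The balance of the pair turned over with passage. ADH2 stood at 0.592 to 0.673 times the FPKM of ADH1 in WT 50G and 0.565 to 0.622 times in ulp2 null 50G libraries, and at 8.51 to 8.94 times in WT 500G and 7.05 to 7.18 times in ulp2 null 500G libraries. The log2 ratio rose by 3.79 in WT and by 3.60 in ulp2 null cells, with no overlap between libraries (exact two-sided permutation test, p = 0.1 for each). At 50G both genes were lower in ulp2 null than in WT cells (-0.73 ± 0.08 SE, limma adjusted p = 4.66e-05 for ADH2, and -0.63 ± 0.10 SE, limma adjusted p = 0.000523 for ADH1), and the 2 ratios overlapped. At 500G the strains gave -0.08 ± 0.08 for ADH2 and 0.20 ± 0.10 for ADH1 (SE, limma adjusted p = 0.568 and 0.219), with 95% intervals of -0.26 to 0.10 and -0.02 to 0.43. The calls of both genes in the 4 other comparisons held under every alternative setting and without any 1 library.

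**Figure D4:**
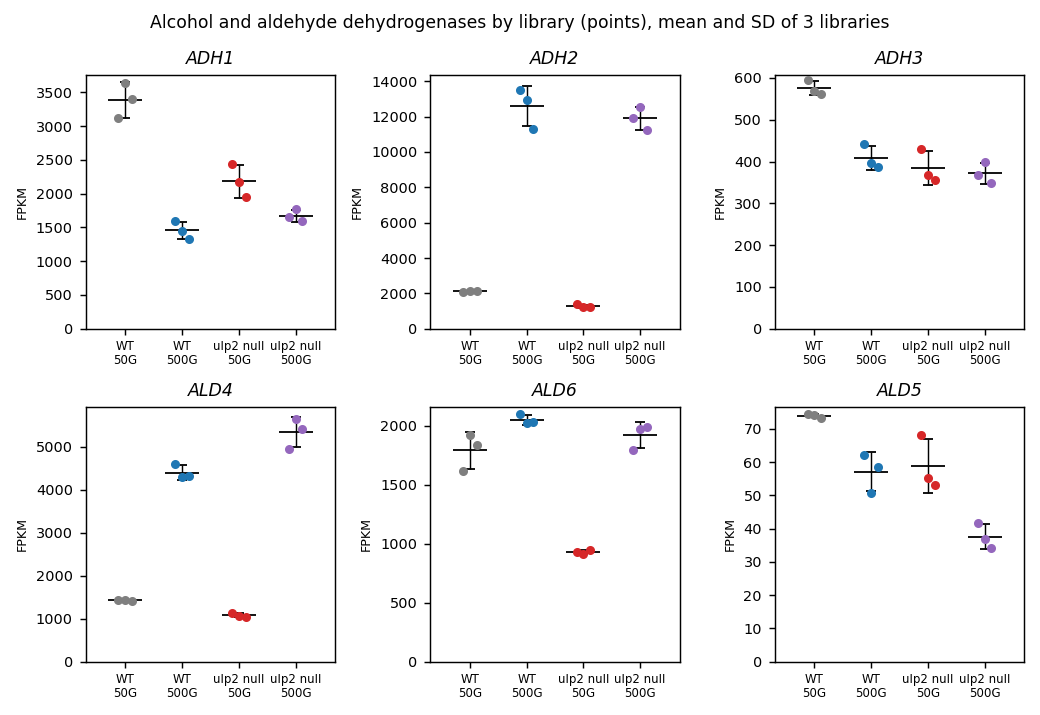
FPKM of 3 alcohol dehydrogenase and 3 aldehyde dehydrogenase genes in each library (points), with the mean and SD of the 3 libraries of a group. ADH2 and ALD4 are high in both 500G groups, at 11232 FPKM or more and 4289 FPKM or more, while ADH1 is highest in WT 50G cells and ALD6 lowest in ulp2 null 50G cells.

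The mitochondrial form ADH3 (YMR083W), which shuttles redox equivalents, was at 596, 569.7 and 563 FPKM in WT cells of 50G and 441, 397 and 386 FPKM in those of 500G. ADH3 levels in ulp2 null cells were 430.4, 367 and 357 FPKM at 50G and 367, 399 and 349 FPKM at 500G. WT 50G libraries were above all 9 others, and ADH3 was lower in ulp2 null 50G (-0.59 ± 0.09 SE, limma adjusted p = 0.000368), WT 500G (-0.50 ± 0.09 SE, limma adjusted p = 0.00116) and ulp2 null 500G cells (-0.63 ± 0.09 SE, limma adjusted p = 0.000364) than in WT 50G cells, all of which share the WT 50G libraries. ADH4 (YGL256W), a form unrelated in sequence, was at 33.0 to 46.6 FPKM over all libraries. ADH5 (YBR145W) was at 51.8 to 89.4 FPKM and was called once, higher in ulp2 null cells at 500G than at 50G (0.43 ± 0.14 SE, limma adjusted p = 0.0249). With an equal sum over the other genes as the scale the ADH5 value was 0.17 and the call was lost (adjusted p = 0.245), while 2 other ADH5 differences were then called, lower levels than in WT 50G cells at WT 500G and ulp2 null 50G (adjusted p = 0.00594 and 0.0248). Both were a small part of the family, at 0.054 times ADH1 or less in every library.

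Aldehyde dehydrogenases take acetaldehyde to acetate, in the mitochondrion (ALD4, ALD5) or the cytosol (ALD2, ALD3, ALD6). ALD4 (YOR374W, chrXV:1039840-1041399, plus strand), the mitochondrial form used on ethanol, was at 1427, 1426 and 1412 FPKM in WT cells of 50G and 4589, 4289 and 4319 FPKM in those of 500G. ALD4 levels in ulp2 null cells were 1138, 1061 and 1046 FPKM at 50G and 4953, 5637 and 5417 FPKM at 500G. The 6 libraries of 500G cells were at 4289 FPKM or more, and the 6 of 50G cells at 1427 or less. ALD4 rose with passage in WT (1.63 ± 0.07 SE, limma adjusted p = 3.37e-08) and in ulp2 null cells (2.30 ± 0.07 SE, limma adjusted p = 1.24e-09). ALD6 (YPL061W), the main cytosolic form on glucose, was at 1617, 1922 and 1835 FPKM in WT cells of 50G and 2098, 2024 and 2029 FPKM in those of 500G. ALD6 levels in ulp2 null cells were 929, 915 and 948 FPKM at 50G and 1792, 1971 and 1994 FPKM at 500G. It was lower in ulp2 null 50G cells than in their WT 50G counterparts (-0.94 ± 0.07 SE, limma adjusted p = 4.49e-06) and higher in ulp2 null cells at 500G than at 50G (1.04 ± 0.07 SE, limma adjusted p = 1.11e-06), and it gave 0.20 ± 0.07 (SE, limma adjusted p = 0.0519) over passaging in WT cells.

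The ratio of ALD4 to ALD6 was 0.742 to 0.882 in WT 50G, 1.10 to 1.23 in ulp2 null 50G, 2.12 to 2.19 in WT 500G and 2.72 to 2.86 in ulp2 null 500G libraries, with no overlap between any of the groups. ALD5 (YER073W), the minor mitochondrial form, was at 74.4, 74.0 and 73.4 FPKM in WT cells of 50G and 62.1, 50.7 and 58.6 FPKM in those of 500G. ALD5 levels in ulp2 null cells were 68.1, 55.2 and 53.2 FPKM at 50G and 41.6, 36.9 and 34.02 FPKM at 500G. It was lowest in ulp2 null 500G cells, below all 9 other libraries, with -0.96 ± 0.11 (SE, limma adjusted p = 9.51e-05) against WT 50G and -0.59 ± 0.11 (SE, limma adjusted p = 0.007) against WT 500G cells. ALD4 and ALD5, of one compartment, thus went apart, and the log2 ratio of ALD5 to ALD4 changed over passaging by -1.999 in WT and -2.93 in ulp2 null cells (exact two-sided permutation test, p = 0.1 for each). ALD3 (YMR169C), a stress-induced cytosolic form, was at 181, 191 and 199 FPKM in WT cells of 50G and 192, 163 and 189 FPKM in those of 500G. ALD3 levels in ulp2 null cells were 246, 233 and 213 FPKM at 50G and 159, 159 and 153 FPKM at 500G. ALD2 (YMR170C), its neighbour and near copy, was at 85.9 to 111 FPKM in the 12 libraries. ALD3 was higher in ulp2 null 50G cells than in their WT 50G counterparts (0.28 ± 0.08 SE, limma adjusted p = 0.0181), while ALD2 gave -0.15 ± 0.06 (SE, limma adjusted p = 0.0804).

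Glycerol is made from dihydroxyacetone phosphate by glycerol 3-phosphate dehydrogenase and a phosphatase. GPD1 (YDL022W), the dehydrogenase known to respond to osmotic stress, was at 744, 785 and 735 FPKM in WT cells of 50G and 783, 716 and 729 FPKM in those of 500G. GPD1 levels in ulp2 null cells were 486, 383 and 430.2 FPKM at 50G and 598, 627 and 586 FPKM at 500G. It was lower in ulp2 null 50G cells than in their WT 50G counterparts (-0.81 ± 0.08 SE, limma adjusted p = 3.37e-05) and gave -0.02 ± 0.08 (SE, limma adjusted p = 0.844) in WT 500G cells. GPD2 (YOL059W), the form known to respond to lack of oxygen, was at 73.4, 78.8 and 75.3 FPKM in WT cells of 50G and 66.2, 66.3 and 77.1 FPKM in those of 500G. GPD2 levels in ulp2 null cells were 59.8, 60.9 and 64.0 FPKM at 50G and 58.8, 70.5 and 66.1 FPKM at 500G. GPD2 was lower in ulp2 null 50G cells than in their WT 50G counterparts (log2 fold change -0.30, limma adjusted p = 0.0162). GPD1 exceeded GPD2 in every library, and their log2 ratio moved towards GPD2 by 0.51 in ulp2 null 50G cells, with no overlap between libraries (exact two-sided permutation test, p = 0.1).

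The phosphatase genes varied widely within the WT groups. GPP1 (YIL053W) was at 229, 337 and 295 FPKM in WT cells of 50G and 187, 169 and 277 FPKM in those of 500G. GPP1 levels in ulp2 null cells were 213, 205 and 227 FPKM at 50G and 157, 170.3 and 151 FPKM at 500G. GPP2 (YER062C) was at 106, 147 and 126 FPKM in WT cells of 50G and 61.8, 67.1 and 108 FPKM in those of 500G. GPP2 levels in ulp2 null cells were 94.5, 100.1 and 104 FPKM at 50G and 74.9, 88.1 and 79.6 FPKM at 500G. In WT 500G cells the third library was well above the other 2 for both genes, and GPP2 had the largest spread of the 34 genes in that group, with an SD of 32.3% of its mean against a median of 5.83% over the genes. Both were lower in ulp2 null 500G cells against WT 50G cells (-0.83 ± 0.18 SE, limma adjusted p = 0.00499 for GPP1, and -0.63 ± 0.19 SE, limma adjusted p = 0.0249 for GPP2), and GPP2 was lower in WT 500G cells (-0.70 ± 0.19 SE, limma adjusted p = 0.0127).

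Over passaging of WT cells, from 50G to 500G, 10 of the 34 genes were higher and 7 lower, with a median log2 fold change of 0.12. Over all tested genes 21.4% were higher and 19.2% lower, with a median of 0.0087. Besides ADH2 and ALD4, the higher genes were FBA1 (0.63 ± 0.07 SE, limma adjusted p = 6.09e-05), PDC6, PGI1 (0.55 ± 0.07 SE, limma adjusted p = 0.000226), ENO2, TDH3, CDC19, GLK1 and PDC1, by 0.26 to 0.63 on the log2 scale. The lower genes were ADH1, HXK2, GPP2, PDC5, ADH3, ALD5 and HXK1. The split depends on the scale between libraries. Equalising the FPKM sum over the other genes, which moves the median of all tested genes to -0.33, left 3 genes higher (ADH2, ALD4 and FBA1) and 17 lower, and the calls of GLK1, PGI1, TDH3, ENO2, CDC19, PDC1 and PDC6 were lost.

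In ulp2 null 500G cells against WT 50G cells, 6 genes were higher and 11 lower, with a median of -0.070. Over all tested genes 16.1% were higher and 17.8% lower, with a median of -0.021. Of the 9 genes of lower glycolysis, 0 were called in either direction by limma, and 2 of them, TDH2 and PYK2, had an unadjusted p under 0.05. The higher genes were ADH2, ALD4, FBA1, HXK2, GLK1 and PGI1, and the lower ones were ADH1, ALD5, GPP1, ADH3, GPP2, PDC5, PDC6, PDC1, GPD1, ALD3 and ALD2. This was the one comparison in which same-numbered libraries deviated together, and blocking on the replicate number gave 7 higher and 15 lower genes. HXK1 (adjusted p = 0.018), TDH2 (0.0117), PGK1 (0.0401) and GPD2 (0.0273) were then lower and PYK2 (0.0367) higher. Equal sums over the other genes gave 2 genes higher (ADH2 and ALD4) and 22 lower, and the median of all tested genes moved to -0.31.

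Over passaging of ulp2 null cells, 16 genes were higher at 500G and 6 lower, with a median of 0.19, beside 24.5% and 29.7% of all tested genes and a median of -0.047. The higher genes included 5 of 8 in upper and 6 of 9 in lower glycolysis. FBA1 was at 5423, 6072 and 5876 FPKM in WT cells of 50G and 9199.9, 9015 and 8642 FPKM in those of 500G. FBA1 levels in ulp2 null cells were 3665, 3922 and 3766 FPKM at 50G and 7614, 8686 and 8278 FPKM at 500G. Its log2 fold change over passaging of ulp2 null cells was 1.11 ± 0.07 (SE, limma adjusted p = 4.48e-07). TDH1 rose by 1.03 ± 0.09 (SE, limma adjusted p = 4.94e-06) and ENO1 by 0.83 ± 0.08 (SE, limma adjusted p = 1.31e-05). In ulp2 null 50G cells, 21 genes were lower than in their WT 50G counterparts. Of these 21, 14 were higher again in ulp2 null 500G than in 50G cells. These comparisons share the ulp2 null 50G libraries, so choosing genes by low values there favours a later rise. Among all tested genes lower at 50G, neither the share that rose again nor the share then not called against WT 50G cells was computed. For 8 of these 14, PFK1, TPI1, TDH1, TDH3, PGK1, GPM1, ENO1 and ALD6, ulp2 null 500G cells were not called different from WT 50G cells. The values of TDH1 there gave 0.01 ± 0.09 (SE, 95% interval -0.19 to 0.20), and those of ENO1 gave -0.13 ± 0.08 (-0.31 to 0.05). Under equal sums over the other genes 10 were higher and 13 lower, with the median of all tested genes at -0.30. PFK1, TPI1, GPM1 and GPD1 then lost their calls over passaging (adjusted p = 0.0694, 0.113, 0.145 and 0.0614), as did ADH5 and PYK2, and 6 of the 8, PFK1, TPI1, TDH1, PGK1, GPM1 and ENO1, were called lower in ulp2 null 500G cells against WT 50G cells, TDH1 by -0.29 (adjusted p = 0.0252).

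Between the strains at 500G, 2 genes were higher in ulp2 null cells, HXK2 and ALD4, and 9 lower, with a median of -0.20, beside 4.9% and 6.06% of all tested genes and a median of -0.035. The lower genes were PDC6, PDC1, ALD5, ENO2, PGK1, PGI1, GPD1, ENO1 and ALD2. Only 4 of these 11 calls, HXK2, PDC1, PDC6 and ALD5, held without any 1 library. The call of PGK1 ended without ulp2 null 500G 2 (limma adjusted p up to 0.0536). The call of PGI1 ended without WT 500G 1, WT 500G 3, ulp2 null 500G 2 or ulp2 null 500G 3 (limma adjusted p up to 0.0722). The call of ENO2 ended without WT 500G 2, WT 500G 3, ulp2 null 500G 1 or ulp2 null 500G 3 (limma adjusted p up to 0.0689). The call of ALD4 ended without WT 500G 2, WT 500G 3, ulp2 null 500G 2 or ulp2 null 500G 3 (limma adjusted p up to 0.0768). The call of ALD2 ended without WT 50G 2, WT 500G 1, WT 500G 2, WT 500G 3, ulp2 null 500G 1, ulp2 null 500G 2 or ulp2 null 500G 3 (limma adjusted p up to 0.0846). The call of ENO1 ended in each such fit except that without WT 50G 1, WT 50G 2 or ulp2 null 500G 2 (limma adjusted p up to 0.117). The call of GPD1 ended in each such fit except that without ulp2 null 50G 1 or ulp2 null 50G 2 (limma adjusted p up to 0.12). Equal sums over the other genes left 2 higher and 4 lower, without PGI1, ENO1, ENO2, ALD2 and GPD1, and a fit to these 2 groups alone gave 1 higher and 2 lower.

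The change over passaging differed between the strains for 18 of the 34 genes by the interaction of strain and passage, with 13 more positive in ulp2 null cells and 5 more negative, beside 9.74% and 13% of all tested genes. The 13 included TDH1, ALD6, ADH1, HXK2, ALD4, ENO1 and ADH2, and the 5 were PDC5, PDC6, ENO2, PDC1 and ALD3. For ADH1 the fall was smaller in ulp2 null cells, and for ADH2 and ALD4 the rise was larger, each from the lower level of ulp2 null 50G cells. Equal sums over the other genes gave 15 more positive and 2 more negative, without ENO2, PDC1 and ALD3. Without 1 library, 4 of the 18 calls could be lost. The call of ADH3 ended without WT 50G 1, WT 500G 2, WT 500G 3, ulp2 null 50G 2, ulp2 null 50G 3 or ulp2 null 500G 2 (limma adjusted p up to 0.0572). The call of GLK1 ended in each such fit except that without WT 50G 1, WT 500G 1, ulp2 null 50G 2 or ulp2 null 500G 1 (limma adjusted p up to 0.0827). The call of PGI1 ended in each such fit except that without WT 50G 1, WT 50G 3, WT 500G 1 or ulp2 null 50G 1 (limma adjusted p up to 0.0799). The call of ENO2 ended in each such fit except that without ulp2 null 500G 2 (limma adjusted p up to 0.0951).

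In the other 4 comparisons, single libraries also decided some calls. Between the strains at 50G, 6 of 25 calls were lost in at least 1 fit without a library. The call of PDC1 ended without WT 50G 2, ulp2 null 50G 1 or ulp2 null 50G 3 (limma adjusted p up to 0.0991). The call of PDC6 ended without WT 50G 3 (limma adjusted p up to 0.051). The call of ALD3 ended without WT 50G 1, ulp2 null 50G 1 or ulp2 null 50G 2 (limma adjusted p up to 0.0623). The call of GPD2 ended without WT 50G 2 (limma adjusted p up to 0.0606). The call of HXK1 ended without WT 50G 1, WT 50G 3, ulp2 null 50G 1, ulp2 null 50G 2 or ulp2 null 50G 3 (limma adjusted p up to 0.0955). The call of ALD5 ended without WT 50G 1, WT 50G 2, WT 50G 3, ulp2 null 50G 2 or ulp2 null 50G 3 (limma adjusted p up to 0.125). The other 19 held in all of these fits. Over passaging of WT cells, 5 of 17 were lost. The call of ENO2 ended without WT 50G 1 (limma adjusted p up to 0.051). The call of PDC1 ended without WT 50G 1, WT 50G 3, WT 500G 2 or WT 500G 3 (limma adjusted p up to 0.0794). The call of ALD5 ended without WT 50G 1, WT 50G 2, WT 50G 3 or WT 500G 2 (limma adjusted p up to 0.0792). The call of GPP2 ended without WT 50G 2 or WT 500G 2 (limma adjusted p up to 0.0544). The call of HXK1 ended in each such fit except that without WT 50G 1, WT 500G 3, ulp2 null 500G 1 or ulp2 null 500G 2 (limma adjusted p up to 0.132). For ulp2 null 500G against WT 50G cells, 5 of 17 were lost. The call of GPD1 ended without WT 50G 2 (limma adjusted p up to 0.0531). The call of GLK1 ended without WT 50G 1, WT 50G 3, ulp2 null 500G 2 or ulp2 null 500G 3 (limma adjusted p up to 0.0742). The call of PGI1 ended without WT 50G 1, WT 50G 3, ulp2 null 500G 1, ulp2 null 500G 2 or ulp2 null 500G 3 (limma adjusted p up to 0.0946). The call of ALD3 ended without WT 50G 2, WT 50G 3 or ulp2 null 500G 3 (limma adjusted p up to 0.0788). The call of GPP2 ended without WT 50G 2, WT 50G 3, ulp2 null 500G 1 or ulp2 null 500G 3 (limma adjusted p up to 0.0972). Over passaging of ulp2 null cells, 2 of 22 were lost. The call of PDC1 ended without ulp2 null 50G 2, ulp2 null 50G 3, ulp2 null 500G 1 or ulp2 null 500G 3 (limma adjusted p up to 0.115). The call of ADH5 ended without ulp2 null 50G 2, ulp2 null 50G 3 or ulp2 null 500G 1 (limma adjusted p up to 0.0929).

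**Figure D5:**
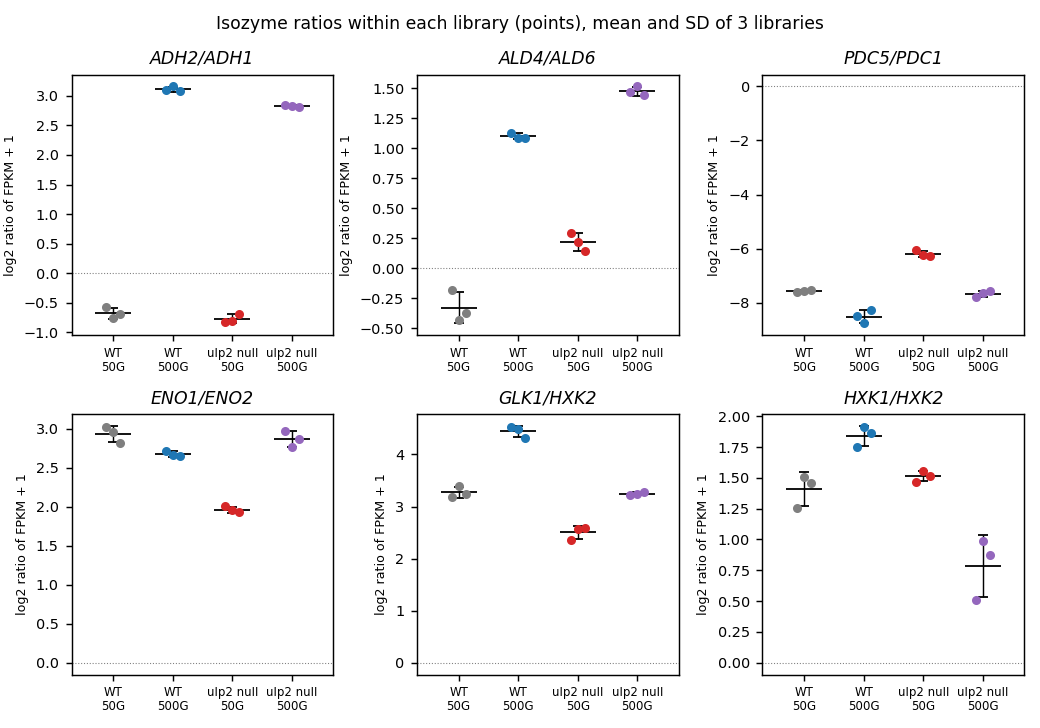
Log2 ratio of FPKM + 1 of 6 isozyme pairs in each library (points), with the mean and SD of the 3 libraries of a group; the dotted line at 0 marks equal levels. ADH2/ADH1 crosses 0 between 50G and 500G in both strains, PDC5/PDC1 is highest and ENO1/ENO2 lowest in ulp2 null 50G cells, and HXK1/HXK2 is lowest in ulp2 null 500G cells.

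Ratios within a library leave out the scale between libraries. Of 18 isozyme or subunit pairs, the libraries of the 2 groups did not overlap for 11 between the strains at 50G, beside 53.6% of all pairs of tested genes, and for 9 between ulp2 null 500G and WT 50G cells, beside 47.5%. These counts lie near the share over all pairs. The counts were 15 over passaging in WT (50.2% of all pairs), 15 over passaging in ulp2 null cells (60.8%) and 12 between the strains at 500G (26.4%). The 18 pairs share genes with each other and are not independent. Over passaging, the largest log2 shift among the 18 was that of ADH2 to ADH1 in both strains, the next that of ALD5 to ALD4, and the third that of ALD4 to ALD6 in WT (1.43) and PDC5 to PDC1 in ulp2 null cells (-1.48). TDH2 relative to TDH3 shifted by -0.35 in WT and -0.47 in ulp2 null cells over passaging, from log2 ratios of -2.94 ± 0.07 (SD, n = 3) for WT 50G cells, -3.28 ± 0.02 in WT 500G, -2.78 ± 0.05 in ulp2 null 50G and -3.24 ± 0.04 in ulp2 null 500G cells. PDC5 relative to PDC1 was -7.57 ± 0.03, -8.51 ± 0.25, -6.19 ± 0.11 and -7.67 ± 0.11 in the same order.

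Genes of adjoining steps were read from a list of 18 enzymes and transporters and 8 regulators. Of the 18, 3 were higher and 8 lower between the strains at 50G, beside 18.7% and 18.1% of all tested genes, and 8 and 4 over passaging in WT, beside 21.4% and 19.2%. Over passaging in ulp2 null cells 6 and 5 were called, beside 24.5% and 29.7%, between ulp2 null 500G and WT 50G cells 6 and 4, beside 16.1% and 17.8%, and between the strains at 500G 1 and 2, beside 4.9% and 6.06%. GUT1, glycerol kinase, and GUT2, the mitochondrial glycerol 3-phosphate dehydrogenase, bring glycerol into glycolysis. GUT2 was at 1049, 1132 and 999.9 FPKM in WT cells of 50G and 1854, 1709 and 2017 FPKM in those of 500G. GUT2 levels in ulp2 null cells were 466, 444 and 489 FPKM at 50G and 1786, 1768 and 1821 FPKM at 500G. Its log2 fold change was -1.18 ± 0.08 (SE, limma adjusted p = 1.41e-06) between the strains at 50G and 1.94 ± 0.08 (SE, limma adjusted p = 1.46e-08) over passaging of ulp2 null cells. GUT1 was at 412, 455 and 459 FPKM in WT cells of 50G and 626, 642 and 659.8 FPKM in those of 500G. GUT1 levels in ulp2 null cells were 225, 237 and 243 FPKM at 50G and 621, 729 and 696 FPKM at 500G. Its ulp2 null 50G libraries were the lowest, and it rose over passaging of ulp2 null cells by 1.53 ± 0.07 (SE, limma adjusted p = 6.71e-08). STL1, the glycerol importer, was at 338, 333 and 289 FPKM in WT cells of 50G and 148, 112 and 146 FPKM in those of 500G. STL1 levels in ulp2 null cells were 151, 102 and 125 FPKM at 50G and 164, 136 and 133 FPKM at 500G. Each of the other groups was lower than WT 50G cells (-1.35 ± 0.16 SE, limma adjusted p = 6.13e-05 in ulp2 null 50G, and -1.25 ± 0.16 SE, limma adjusted p = 0.000137 in WT 500G). PFK27, which makes the activator fructose 2,6-bisphosphate, was at 9.83, 12.8 and 9.47 FPKM in WT cells of 50G and 4.50, 5.29 and 7.96 FPKM in those of 500G. PFK27 levels in ulp2 null cells were 23.0, 19.1 and 18.2 FPKM at 50G and 4.98, 5.68 and 6.64 FPKM at 500G. Its level was highest in ulp2 null 50G cells (-1.64 ± 0.19 SE, limma adjusted p = 3.94e-05 over passaging of ulp2 null cells). Among the regulators, HOG1, the osmotic stress kinase, which lies on chromosome XII, was at 97.7, 101 and 101 FPKM in WT cells of 50G and 55.3, 55.3 and 60.02 FPKM in those of 500G. HOG1 levels in ulp2 null cells were 191, 181 and 167 FPKM at 50G and 68.3, 73.5 and 80.6 FPKM at 500G. Its ulp2 null 50G libraries were above all 9 others, and it fell over passaging of ulp2 null cells (log2 fold change -1.27 ± 0.07, SE, limma adjusted p = 2.99e-07). No gene of this list other than GUT1, GUT2, STL1, PFK27 and HOG1 passed both an adjusted p under 0.05 and a 2-fold change in a pairwise comparison.

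Of the 8 glucose-repressed genes, 5 were lower and 1 higher between the strains at 50G, 5 higher and 1 lower over passaging in WT, and 7 higher and 1 lower over passaging in ulp2 null cells. The shares of all tested genes were 18.1% lower and 18.7% higher, 21.4% higher and 19.2% lower, and 24.5% higher and 29.7% lower in the same order. ACS1, acetyl-CoA synthetase, the step after the aldehyde dehydrogenases, was at 929, 973 and 893 FPKM in WT cells of 50G and 3743, 3659.6 and 3726 FPKM in those of 500G. ACS1 levels in ulp2 null cells were 635, 620.2 and 674 FPKM at 50G and 3481, 3567 and 3568 FPKM at 500G. Its libraries split by passage as those of ADH2 and ALD4 did, with 1.99 ± 0.06 (SE, limma adjusted p = 3.14e-09) over passaging in WT and 2.46 ± 0.06 (SE, limma adjusted p = 3.46e-10) in ulp2 null cells. Of the other glucose-repressed genes, JEN1 and ADY2 split the same way and SUC2 the opposite way. FBP1, PCK1, ICL1 and MLS1 did not split by passage over both strains together. Within each strain, however, all their 500G libraries lay above all their 50G libraries. The share of all tested genes that did so was not computed. Of the 8 stress genes, 2 were higher and 5 lower between the strains at 50G, 6 higher and 0 lower over passaging in WT, and 5 higher and 2 lower over passaging in ulp2 null cells, beside the same shares.

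Within groups, one library was often the lowest or the highest of the 3. In WT 50G cells replicate 1 was the lowest of the 3 libraries for 24 genes and replicate 2 the highest for 23. In ulp2 null 500G cells replicate 1 was the lowest for 23 and replicate 2 the highest for 27. The median SD of a gene was 7.24% of its mean in WT 50G, 5.83% in WT 500G, 4.85% in ulp2 null 50G and 7.07% in ulp2 null 500G cells.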

How the data were processed

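RNA from 12 yeast samples was sequenced by the authors as stranded TruSeq libraries. The labels name polyA RNA and the methods total RNA. Per the study's methods, the authors trimmed reads, mapped them with TopHat2 2.1.1 to the R64 genome, kept reads with a single place in it and computed FPKM with Cuffdiff of Cufflinks 2.2.1. The deposited FPKM values were used as they stand; how they were scaled between libraries is not given in the sources used here, and the methods give the depth only as an average over the libraries. Groups came from the sample labels, and the 34 genes and the other lists were chosen with earlier results of these data known.

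log2(FPKM + 1) was fitted with limma 3.58.1 in R 4.3.3 (trended variance, 4 groups, 6572 of 7126 genes with mean FPKM of at least 1), with Benjamini-Hochberg adjustment and a threshold of 0.05. The script was tested on simulated data. Shares and ratios of isozymes were compared by exact two-sided permutation tests, unadjusted, over 18 pairs and 5 comparisons. All 34 genes could be named. Values in every library are given for genes past 2-fold in some comparison and for described isozyme pairs, and other genes of the listed sets, apart from markers of growth phase and strain, only past 2-fold.

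Alternatives were a pseudocount of 0.1, no filter or a mean of at least 10 FPKM, only the 2 groups compared, a replicate block, 2 other scalings, and leaving out each library. Same-numbered libraries of WT 50G and ulp2 null 500G deviated together (correlations 0.141, 0.115 and 0.135), and those of no other compared pair did in all 3 numbers. Sequences came from RefSeq R64, where 6079 of the 7126 gene names were matched. The Adr1 and carbon source-responsive motifs were added after seeing the data.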

Additional observations from a re-analysis of the deposited data

Results flagged for a closer look

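For 18 of the 34 genes the change over passaging differed between the strains in limma's test of the interaction, on the log2 scale and as the change in ulp2 null cells minus that in WT cells. It was positive for TDH1 (0.97), ALD6 (0.84), ADH1 (0.84), HXK2 (0.76), ALD4 (0.67), ENO1 (0.66), ADH2 (0.65), PGK1 (0.52), GPD1 (0.51), FBA1 (0.48), ADH3 (0.45), PGI1 (0.35) and GLK1 (0.33). It was negative for PDC5 (-1.02), PDC6 (-0.73), ENO2 (-0.51), PDC1 (-0.49) and ALD3 (-0.48). ulp2 null 50G cells, described as disomic for chromosomes I and XII, enter every one of these values, and the part of the extra copies was not tested.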

How the results depend on the processing

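Scaling the libraries to an equal FPKM sum over the genes other than the 34 moved counts in all 6 comparisons. Between the strains at 50G it left 2 genes called higher. Over passaging in WT cells 3 were higher and 17 lower (median -0.23), for ulp2 null 500G against WT 50G 2 and 22 (median -0.37), and over passaging in ulp2 null cells 10 and 13 (median -0.071). Between the strains at 500G 4 were lower, and 2 had a negative interaction (median 0.36). Sign changes were counted only for genes called in the main fit or under this scaling. Over passaging in WT cells they were TDH1 (-0.30), PGK1 (-0.18), PYK2 (-0.24) and PDC1 (-0.093). Between ulp2 null 500G and WT 50G they were HXK2 (-0.026), GLK1 (-0.058), PGI1 (-0.064) and TDH1 (-0.29). Over passaging in ulp2 null cells the sign turned for PYK2 (-0.0091). Genes called in neither fit, such as GPM1 and ALD6 over passaging in WT cells, could also change sign and are not listed. This scaling itself lowers every value of the 500G libraries, whose FPKM sums were higher. A fit to the 2 groups alone gave 1 higher and 2 lower between the strains at 500G. Without ribosomal protein genes in the sum, the share of the 34 genes was 5.44% in WT 50G, 5.90% in WT 500G, 3.85% in ulp2 null 50G and 5.65% in ulp2 null 500G cells.

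Leaving out 1 library at a time gave 2 to 4 genes higher and 18 to 23 lower between the strains at 50G, with 2 higher without WT 50G 1, ulp2 null 50G 1 or ulp2 null 50G 2. It gave 8 to 12 higher and 4 to 8 lower over passaging in WT cells, with 4 lower without WT 50G 2 or WT 500G 2, and 1 to 3 higher and 4 to 9 lower between the strains at 500G. For single genes, 2281 of these refits kept the side of the threshold, 133 lost a call and 34 gained one. In the other settings 1283 kept it, 41 lost a call, 61 gained one and 9 turned in sign. Direction was compared only where a gene was called in either fit, so sign changes of uncalled genes are among those kept.

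With the replicate number as a block, 4 were higher and 22 lower between the strains at 50G, 13 and 8 over passaging in WT, 17 and 7 over passaging in ulp2 null cells, 3 and 13 between the strains at 500G, and 15 and 5 in the interaction. In these comparisons the libraries share only a number. The depth of each library is not given in the sources used here, so counting error of low genes such as PDC5 could not be computed, and 3 libraries against 3 cannot reach a permutation p under 0.1.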
